A study of Saccharomyces cerevisiae with 72 samples.

Results

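The genes described here are 60 ribosome biogenesis genes of Saccharomyces cerevisiae, budding yeast, chosen by name as factors that build ribosomes in the nucleolus and nucleus. Each had a probe set of its own on the array, and all 60 were among the 6869 probe sets tested. By their known roles they were divided into 23 factors of the small subunit, 28 factors of the large subunit and 9 that act on both subunits or on neither alone, among them the protein subunits of small nucleolar ribonucleoproteins.

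Ribosome assembly starts on the growing ribosomal RNA precursor. A particle called the small subunit processome, made of the UtpA, UtpB and Mpp10 complexes and many single proteins, folds and cuts the part that becomes the small subunit. A second set of factors, rich in RNA helicases and GTPases, matures the large subunit, while box C/D and box H/ACA ribonucleoproteins methylate and pseudouridylate the RNA of both. In yeast these genes are known to be transcribed together according to growth conditions, with the TOR kinase pathway as a main regulator, through the activator Sfp1, the kinase Sch9 and the repressors Dot6, Tod6 and Stb3.

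The study comprised 72 Affymetrix arrays, 4 for each of 18 groups: 6 strains, each left untreated or exposed for 1 h to rapamycin at 200 nM or to 3-amino-1,2,4-triazole (shortened to 3-AT) at 10 mM. The strains were a wild type (KY652) and deletions of gcn2 (KY654), gcn4 (KY656), gln3 (KY640), gcn2 with gln3 (KY641) and gcn4 with gln3 (KY643), each genotype represented by 1 strain. All groups grew in synthetic dextrose medium with ammonium sulfate and every amino acid but histidine. 3-AT blocks histidine synthesis, and rapamycin inhibits the TOR kinase; Gcn2 is the kinase that senses uncharged tRNA, Gcn4 the activator of amino acid synthesis genes that it induces, and Gln3 an activator of nitrogen catabolism genes held back by TOR. By the design text, the comparison asked how the amino acid control and TOR pathways direct the transcriptome under both stresses. Nothing in the labels says that the 4 replicates were separate cultures, so p-values measure the spread between these arrays.

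GLN3 signal was 0.416 to 39.4 on the 36 arrays of its deletions and 124 to 870 on the rest, and GCN4 signal was 3.85 to 86.8 on 24 arrays against 8080 to 23622. GCN2 signal overlapped, at 74.9 to 226 on the 24 arrays of its deletions, 22 of them above background, and 81.5 to 391 on the other 48. Among untreated arrays alone it was 74.9 to 123 against 201 to 256. Actin mRNA gave a signal ratio of its 3′ to its 5′ probe sets of 1.31 to 5.03 on 69 arrays and of over 40 on the other 3, namely rapamycin replicate 2 of gcn4 gln3 and, in gcn2 gln3, replicate 1 of each drug treatment. Without those 3 arrays the median residual standard deviation fell from 0.41 to 0.28, and counts without them are given beside the main ones. The arrays numbered 3 also stood apart for these genes: the median of the 60 was lowest on replicate 3 in 17 of 18 groups, on average 0.43 below its group on the log2 scale (a deviation of -0.43), whereas the median of all probe sets deviated by 0.04. Every group holds 1 such array. Without all 18 of them 26 genes were lower with 3-AT and 59 with rapamycin in wild type, where 28.6% and 30.8% of all probe sets were called lower or higher. Without the arrays numbered 1, 2 or 4 the 3-AT counts were 15, 21 and 18, where 30.8%, 36.7% and 24.7% of all probe sets were called. The rapamycin counts were 58, 58 and 57, where 32.9%, 38.9% and 26.7% were called.

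**Figure D1:**
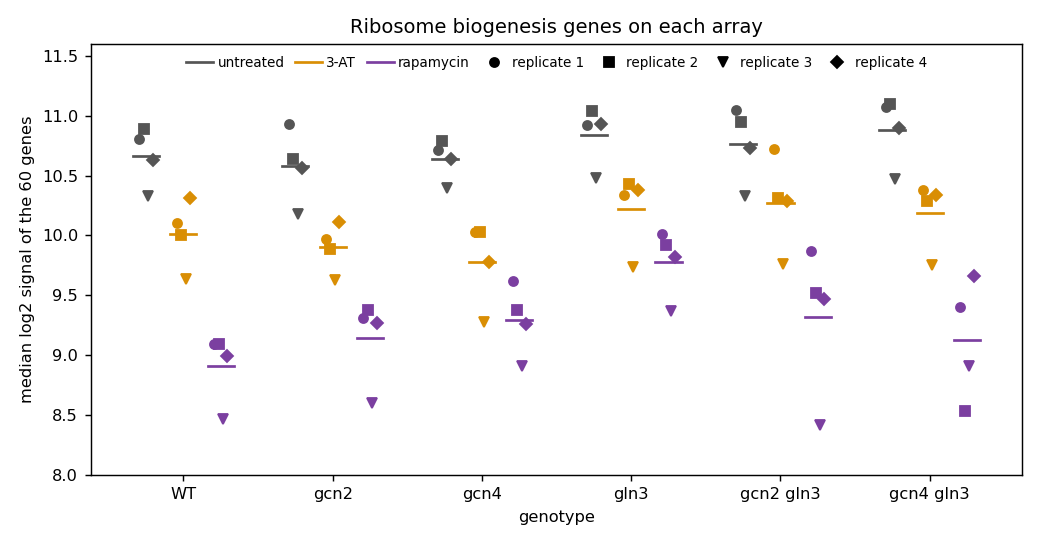
Median log2 signal of the 60 ribosome biogenesis genes (y axis) on each of the 72 arrays, by genotype (x axis) and treatment (colour), with the marker shape giving the replicate number and a bar the mean of 4 arrays. In wild type the arrays lie at 10.33 to 10.89 untreated, 9.64 to 10.31 with 3-AT and 8.47 to 9.09 with rapamycin, and the downward triangles of replicate 3 are lowest in all groups but gcn4 gln3 with rapamycin.

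In wild-type cells rapamycin lowered nearly the whole set. Of the 60 genes 58 were lower and 0 higher than in untreated cells by limma's moderated test with Benjamini-Hochberg adjustment over all probe sets, where 15.7% of the probe sets tested were lower and 22.2% higher. The median change was -1.81 on the log2 scale, 1.95 lower than the median of all probe sets (a difference of -1.95). All 23 small subunit factors, 27 of 28 large subunit factors and 8 of 9 shared factors passed. Signals of 59 genes on the 4 rapamycin arrays lay wholly below those on the 4 untreated arrays, as did 18.6% of all probe sets. Because every array was scaled to a common mean, these are changes relative to the other transcripts, and fewer cells with a transcript cannot be told apart from less of it per cell. Without the 3 arrays of high actin ratio all 60 were lower, where 21.8% of all probe sets were.

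Among the small subunit factors the UtpA subunits were all lower, 6 of 6 with a median change of -1.84, as were 4 of 4 UtpB subunits at -2.23 and 3 of 3 Mpp10 complex members at -1.44. UTP22, a processome component, gave signals of 1721, 1874, 1089 and 1472 in untreated wild type and 266, 234, 113 and 276 with rapamycin. Its change of -2.85 ± 0.24 (log2, SE), 7.19-fold lower with an adjusted p of 1.5e-15 by limma, was the most negative of its class. UTP15, a UtpA subunit, read 1153, 1661, 1123 and 1092 untreated and 264, 317, 186 and 186 with rapamycin. The groups were far apart, and the change was -2.42 ± 0.26 (adjusted p = 1.7e-11, limma). UTP9, also of UtpA, went from 878, 794, 605 and 514 to 178, 140, 94.4 and 130, a change of -2.37 ± 0.40 (adjusted p = 1.9e-06, limma). UTP18, a UtpB subunit, read 2271, 2856, 1578 and 2141 untreated and 623, 622, 316 and 432 with rapamycin, a change of -2.17 ± 0.44. The other UtpA and UtpB genes without a bound lay at -1.39 (UTP5) to -2.30 (UTP6). UTP6 was above background on only 2 of the 4 wild-type rapamycin arrays. RRP9, for a protein of the U3 particle, changed by -1.98 ± 0.22, UTP14, for the activator of a helicase, by -2.09 ± 0.41, and NSR1, for the yeast relative of nucleolin, by -1.72 ± 0.47.

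The least affected members of the small subunit class still passed. UTP7, another processome protein, read 769, 926, 513 and 800 untreated and 460, 324, 223 and 403 with rapamycin, with no overlap and a change of -1.11 ± 0.29 (adjusted p = 0.0013, limma). IMP4, a partner of Mpp10 on the U3 small nucleolar RNA, read 1359, 1398, 884 and 1510 against 610, 560, 332 and 745, a change of -1.23 ± 0.28. UTP4 was not above background on any of the 4 rapamycin arrays, so it has only a bound: from a mean signal of 208 untreated (71.1 as measured with rapamycin) it was at least 2.18-fold lower (adjusted p = 2.4e-04, limma). With UTP4 at that bound the median of the class stayed at -1.87. A bound here is the mean log2 signal of the brighter group less that of the dimmer, in which each array's value is raised to its lowest signal above background.

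Of the large subunit factors DBP3, a helicase gene for cutting of the first internal spacer, had the most negative change with rapamycin. It read 2315, 2931, 1776 and 2447 untreated and 431, 531, 253 and 351 treated, 6.17-fold lower at -2.63 ± 0.32 (adjusted p = 8.9e-10, limma). The GTPase gene NOG2, whose product checks pre-60S particles before export, read 8672, 7027, 3740 and 6210 and then 1284, 1068, 719 and 1251, a change of -2.54 ± 0.41. NOG1, for another pre-60S GTPase, read 4097, 4917, 2908 and 3120 and then 864, 1056, 536 and 791, a change of -2.22 ± 0.35. All 3 GTPase genes were lower, as were the 3 members of the Nop7-Erb1-Ytm1 complex (median -1.62) and 5 of 6 RNA helicase genes of this class (median -1.31). MAK16 and MAK21, of early pre-60S particles, changed by -2.16 ± 0.39 and -2.02 ± 0.32, and NOP2, for a methyltransferase of the large ribosomal RNA, by -1.97 ± 0.36. MAK16 and MAK21 were each above background on 3 of the 4 wild-type rapamycin arrays.

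2 genes missed the threshold with rapamycin. DBP10, a helicase gene of the large subunit, read 1491, 1183, 806 and 1825 untreated and 787, 644, 611 and 931 treated, so that the groups overlapped, and its change was -0.79 ± 0.36 (adjusted p = 0.079, limma). FPR3, for a nucleolar proline isomerase of the FK506-binding family, read 2596, 3193, 3187 and 2694 and then 1488, 1841, 1988 and 1754. Its groups did not overlap, but the change of -0.72 ± 0.30 had an adjusted p of 0.054 by limma. Both passed without the 3 arrays of high actin ratio, DBP10 with an adjusted p of 0.024 and FPR3 with 3.1e-06. The next least negative change of the large class was that of TIF6, for a factor that keeps the subunits from joining, which read 5364, 4278, 3363 and 4052 untreated and 2628, 2086, 1921 and 2181 treated, a change of -0.94 ± 0.29 (adjusted p = 0.0076, limma).

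DBP2, for a DEAD-box helicase of ribosomal RNA processing and mRNA decay, had the most negative change of the 60. Its signals were 6149, 6620, 4181 and 6096 untreated and 377, 288, 370 and 452 with rapamycin, 15.5-fold lower at -3.95 ± 0.32 (adjusted p = 4.8e-16, limma). A dimmer probe set of DBP2 gave -4.88. NOP56, a core protein of the box C/D ribonucleoproteins, read 1961, 2148, 1528 and 2240 and then 347, 405, 220 and 381, a change of -2.56 ± 0.31. GAR1, of the box H/ACA ribonucleoproteins, read 6150, 5428, 4209 and 5533 and then 1011, 1051, 637 and 1076, a change of -2.52 ± 0.25. The 3 box C/D and 2 box H/ACA protein genes all passed, with medians of -2.22 and -2.17.

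**Figure D2:**
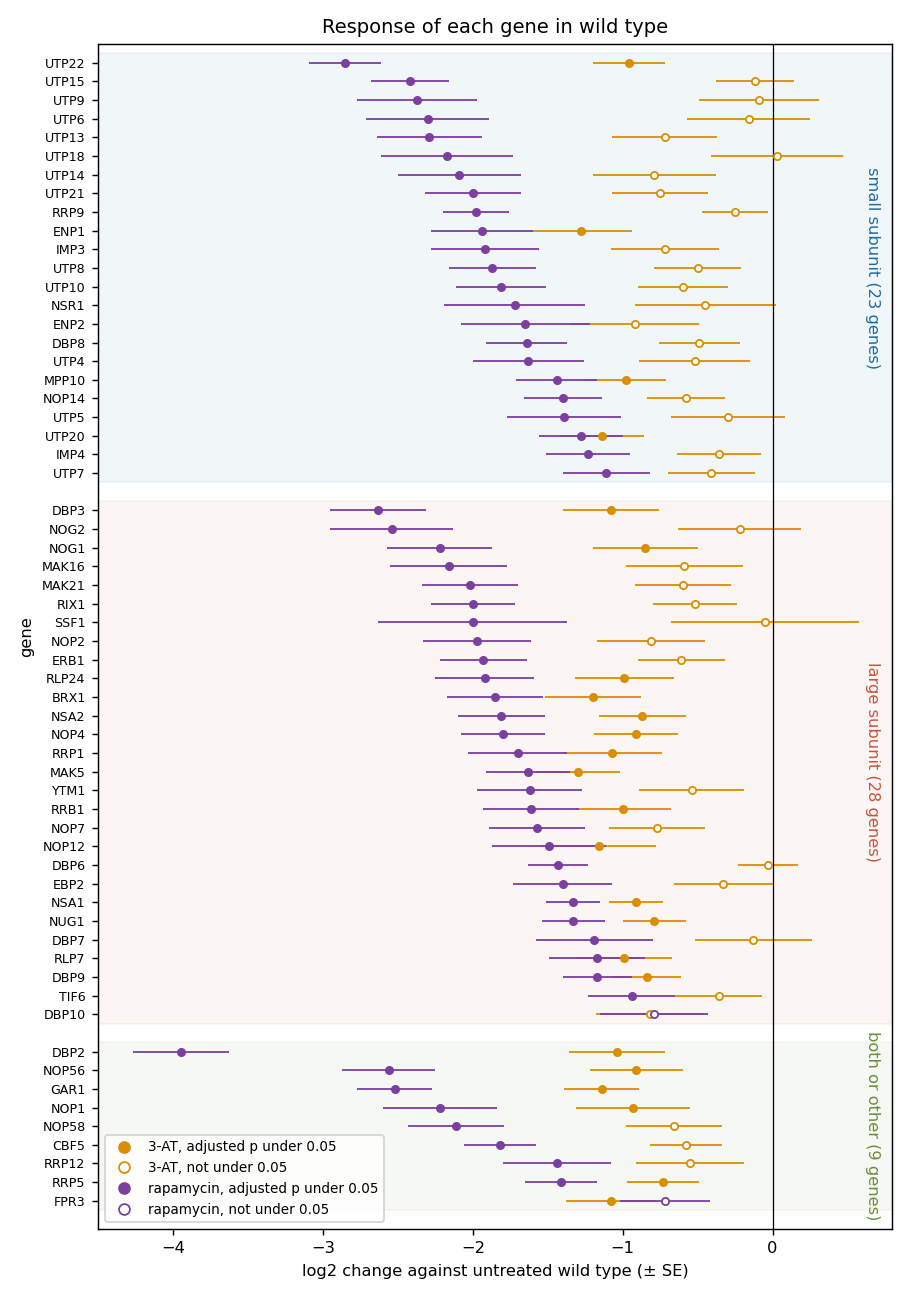
Log2 change against untreated wild type (x axis, bars ± SE, n = 4 arrays a group) of each of the 60 genes (y axis), by class, with filled points where limma's adjusted p is under 0.05. Rapamycin points (purple) run from -3.95 for DBP2 to -0.72 for FPR3, and 3-AT points (orange) from -1.30 for MAK5 to 0.03 for UTP18, which fell below 0 under quantile normalization or median centring; the fitted rapamycin value of UTP4 is drawn although only a bound can be given for it.

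3-AT lowered fewer of the genes, and by less. In wild type 24 of the 60 were lower and 0 higher, where 13.6% of all probe sets tested were lower and 22.2% higher, and the median change was -0.73. The class counts were 4 of 23 small subunit factors (median -0.52), 14 of 28 large subunit factors (median -0.82) and 6 of 9 shared factors (median -0.91). Signals of 29 genes lay wholly below those of the untreated arrays, against 18.6% of all probe sets. The count depends on the estimate of spread: without the 3 arrays of high actin ratio, none of them in wild type, 38 genes were lower, 12 small, 18 large and 8 shared. The share of all probe sets that were lower rose as well, to 22.8%. The count of the 60 was 41 with array weights, 40 in a fit of the compared groups alone and 37 with centring on array medians. No share of all probe sets is given for these settings, so whether it rose there too is not shown.

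MAK5, a helicase gene of the large subunit, had the most negative change with 3-AT. It read 801, 1109, 590 and 830 untreated and 405, 311, 253 and 369 with 3-AT, 2.47-fold lower at -1.30 ± 0.28 (adjusted p = 1.7e-04, limma). ENP1, for a processome protein that stays with the small subunit until its export, read 2672, 3023, 2163 and 3177 and then 1310, 801, 927 and 1662, a change of -1.28 ± 0.34 (adjusted p = 0.0020, limma). BRX1, of early large subunit particles, read 2501, 2611, 1840 and 2758 and then 1435, 1106, 525 and 1440, a change of -1.20 ± 0.32. In none of these 3 genes did treated and untreated arrays overlap. UTP20, for a large scaffold protein of the processome, read 408, 413, 265 and 448 and then 181, 160, 150 and 194, a change of -1.14 ± 0.28. GAR1 read 2417, 2824, 1643 and 2967 with 3-AT, all below its untreated values given above, a change of -1.14 ± 0.25 (adjusted p = 2.3e-04, limma).

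The other 12 large subunit genes that passed, among them NOP12, RRP1, DBP3, RLP24, RLP7, NOP4, NSA2, NOG1, DBP9 and NUG1, changed by -1.16 (NOP12) to -0.79 (NUG1). NOP12 was above background on only 2 of the 4 wild-type 3-AT arrays. The small subunit genes that passed were ENP1, UTP20, UTP22 and MPP10, the last at -0.98 ± 0.27. Among the shared factors FPR3 read 1095, 1374, 1598 and 1481 with 3-AT, all below its untreated arrays, a change of -1.08 ± 0.30. DBP2 read 3502, 2813, 1578 and 3770, also with no overlap, and changed by -1.04 ± 0.32 (adjusted p = 0.0076, limma), which did not pass without wild-type 3-AT replicate 3 (-0.77, adjusted p = 0.072, limma). NOP1 (-0.93 ± 0.38), NOP56 (-0.91 ± 0.31) and RRP5 (-0.73 ± 0.24) passed, whereas NOP58, the third core box C/D protein gene on the list, had -0.66 ± 0.32 (adjusted p = 0.099, limma) and CBF5, for the pseudouridine synthase of the H/ACA particles, -0.58 ± 0.24 (adjusted p = 0.050 after rounding, just over the threshold, limma). NOP56 and RRP5 likewise missed without 3-AT replicate 3 (adjusted p = 0.058 and 0.081, limma), RRP5 also without untreated replicate 1, and NOP12 without 3-AT replicate 1 or 3 (adjusted p = 0.066 and 0.060, limma). NOG1 missed without any 1 of the 8 arrays except untreated replicate 3, and NOP1 without any 1 except 3-AT replicate 4, with adjusted p values up to 0.15 and 0.11 by limma. In all, 8 of the 24 calls ended on leaving out some single array, the other two being NSA2 (without 3-AT replicate 3 or untreated replicate 2) and RLP7 (without 3-AT replicate 3), as did 1 of the 58 with rapamycin, DBP7 without untreated replicate 1.

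Several processome genes that rapamycin lowered strongly had values with 3-AT that overlapped those of untreated cells. UTP18 read 2425, 2325, 1548 and 2695 with 3-AT, a change of 0.03 ± 0.44 (adjusted p = 0.97, limma), which became -0.03 with quantile normalization and -0.15 with median centring. UTP9 read 602, 619, 616 and 733 and UTP15 read 1113, 1035, 1004 and 1440, changes of -0.09 ± 0.40 and -0.12 ± 0.26. DBP6, a helicase gene of early large subunit assembly, showed the same overlap at 1359, 1691, 1431 and 1893 against 1914, 1984, 1437 and 1238 untreated, a change of -0.03 ± 0.20 (adjusted p = 0.93, limma). None of the 6 UtpA genes (median -0.40), 4 UtpB genes (median -0.44) or 3 genes of the Nop7-Erb1-Ytm1 complex (median -0.61) passed with 3-AT. With the 3 arrays of high actin ratio left out, UTP10, UTP13, UTP21, NOP7 and ERB1 were lower, that is 1 of 6 UtpA genes, 2 of 4 UtpB genes and 2 of 3 genes of the complex. NOG2, at 6751, 5764, 3366 and 5816 (-0.22 ± 0.41), passed in neither fit. UTP22 read 897, 845, 564 and 847 and passed at -0.96 ± 0.24 (adjusted p = 8.7e-04, limma), but of its next brightest probe sets one gave -0.26 and the other 0.09, whereas for rapamycin those gave -3.15 and -2.80.

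Tested against each other in wild type, rapamycin left 45 of the 60 genes lower than 3-AT did and 0 higher, where 19.8% of all probe sets were lower and 15.8% higher. The median difference was -1.13, with 19 of 23 small, 18 of 28 large and 8 of 9 shared factors past the threshold. Of the 45 calls 14 ended on leaving out some single array, those of DBP7, IMP3, IMP4, NOP14, NOP7, NSR1, NUG1, RLP24, RRP12, RRP5, UTP4, UTP5, UTP7 and YTM1, of which all but NOP14 did so without rapamycin replicate 3. Signals of 43 genes on the rapamycin arrays lay wholly below those on the 3-AT arrays, as did 24.4% of all probe sets. The largest differences were those of DBP2 (-2.91 ± 0.32), NOG2 (-2.32 ± 0.41), UTP15 (-2.29 ± 0.26) and UTP9 (-2.28 ± 0.40). Without the 3 arrays of high actin ratio 51 were lower and 1 was higher, FPR3, at 0.36 ± 0.13 (adjusted p = 0.017, limma). Of all probe sets 27.4% were lower and 24.3% higher there. In the fit of all arrays the FPR3 difference was 0.36 ± 0.30 (adjusted p = 0.40, limma), with rapamycin signals of 1488 to 1988 and 3-AT signals of 1095 to 1598.

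For 15 genes the test found no difference between the agents. UTP20 read 135, 130, 141 and 230 with rapamycin against 150 to 194 with 3-AT, so the treatments overlapped, and they differed by -0.14 ± 0.28 (adjusted p = 0.75, limma). MAK5 read 249, 357, 217 and 243 with rapamycin, a difference of -0.33 ± 0.28 from 3-AT (adjusted p = 0.39, limma). RLP7, for a protein resembling a ribosomal protein, differed by -0.18 ± 0.32, and NOP12, for an RNA-binding protein of large subunit RNA processing, by -0.34 ± 0.38. NOP12 was above background on 2 of the 4 arrays with 3-AT and 3 of the 4 with rapamycin. A test that these 15 genes miss does not show that the treatments act alike on them. RRP5, whose product joins early assembly of both subunits, read 2376, 2013, 1618 and 1810 untreated, 1076, 1426, 815 and 1470 with 3-AT and 750, 683, 640 and 855 with rapamycin. The rapamycin and 3-AT arrays overlapped, and the difference of -0.68 ± 0.24 passed (adjusted p = 0.020, limma), but not without 3-AT replicate 2 or 4 or rapamycin replicate 3. RRP12, for a factor that helps export both subunits, read 4092, 3684, 2363 and 3983 untreated, 2235, 2674, 1884 and 2772 with 3-AT and 1375, 1280, 1046 and 1431 with rapamycin, with no overlap between any of the 3 groups except untreated replicate 3, which lay among the 3-AT arrays. Its change was -0.55 ± 0.36 with 3-AT (adjusted p = 0.24, limma) and -1.44 ± 0.36 with rapamycin.

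**Figure D3:**
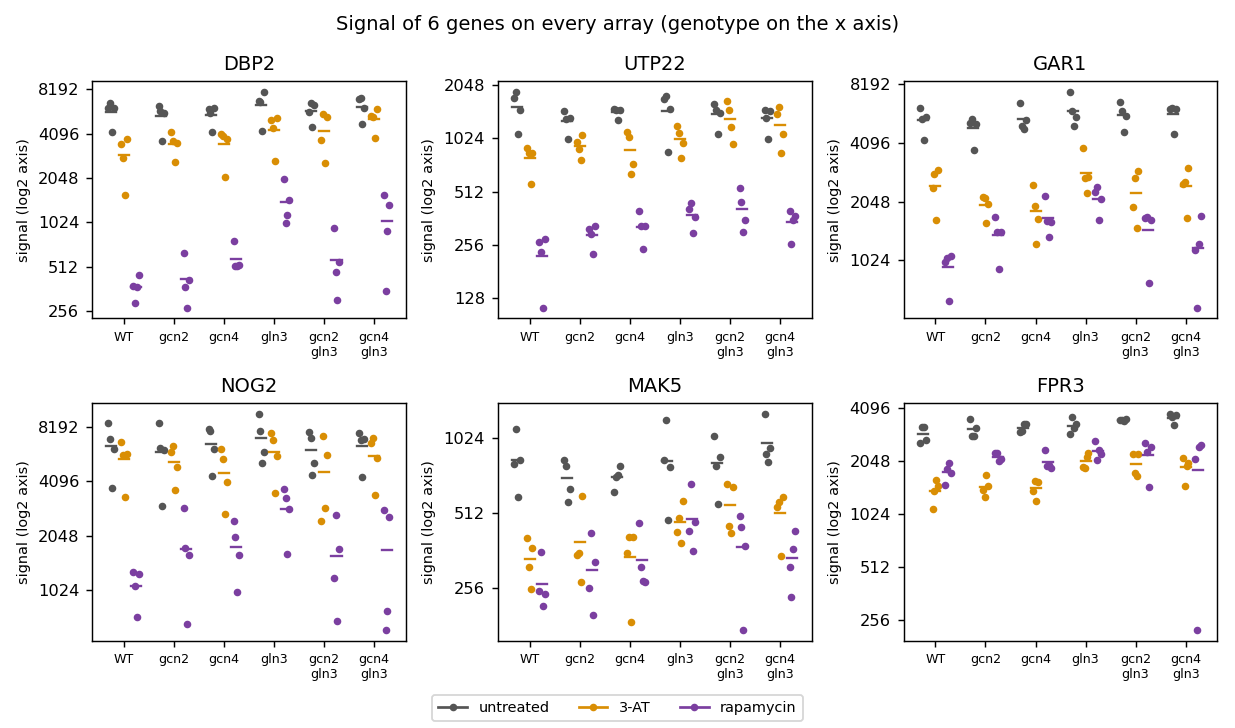
Signal (y axis, log2 scale) of DBP2, UTP22, GAR1, NOG2, MAK5 and FPR3 on every array, by genotype (x axis) and treatment (colour), with bars for the mean of 4 arrays. DBP2 with rapamycin lies at 288 to 452 in wild type and at 1020 to 2023 in gln3, MAK5 signals with both agents lie close together, and FPR3 is the gene whose 3-AT arrays tend to lie below its rapamycin arrays.

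In wild type, the class medians of small and large subunit factors ranked in opposite order under the 2 agents, which did not hold in every deletion strain. With 3-AT in wild type the median change of the small subunit factors was 0.30 above that of the large subunit factors, and with rapamycin it was 0.21 below (a difference of -0.21). In the deletion strains the 3-AT difference was also above 0, lowest in gcn2 gln3 at 0.14, then 0.19 in gln3, 0.21 in gcn4, 0.24 in gcn4 gln3 and 0.31 in gcn2. The rapamycin difference was below 0 in gcn2 (-0.18), gcn4 (-0.09) and gcn2 gln3 (-0.05) and above 0 in gln3 (0.08) and gcn4 gln3 (0.20). Without the 3 arrays of high actin ratio the value for gcn4 gln3 was 0.02.

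A related measure was computed per array, as the median over small subunit factors less that over large subunit factors of each gene's change from its genotype's untreated mean. All 24 arrays with 3-AT lay above 0, between 0.03 and 0.39, and 21 of 24 with rapamycin lay below 0, between -0.32 and 0.12. The 24 untreated arrays ran from -0.12 to 0.08. With rapamycin the measure differed from the gap of class medians in gcn4 gln3, where its mean over arrays was -0.06 against 0.20. In gln3 it was 0.00 against 0.08. In wild type the 3-AT arrays lay at 0.03 to 0.26 and the rapamycin arrays at -0.28 to -0.06, so they did not overlap. The wild-type gap with 3-AT stands beside class medians of -0.52 and -0.82, and that with rapamycin beside -1.87 and -1.67. These gaps are a description with no test. Among the other assembly factors described below, which are not part of the 60, the medians with 3-AT were -0.56 for 41 small and -0.62 for 43 large subunit factors, and with rapamycin -1.47 and -1.44, so the gap there was narrower with 3-AT and near 0 with rapamycin.

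**Figure D4:**
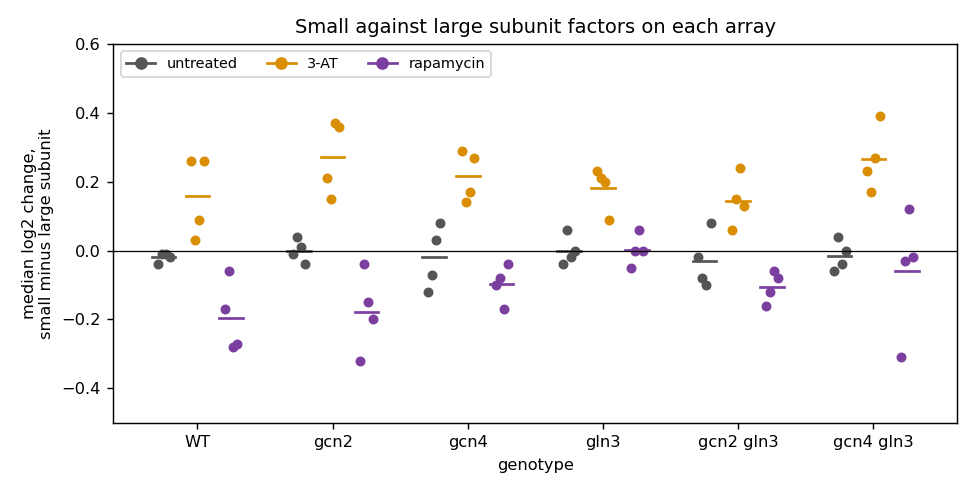
Median log2 change of small subunit factors less that of large subunit factors (y axis) on each array, by genotype (x axis) and treatment (colour), with bars for the mean of 4 arrays. All 24 arrays with 3-AT lie above 0, 21 of 24 with rapamycin lie below 0, and gln3 and gcn4 gln3 hold the 3 rapamycin arrays that do not.

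In the deletion strains 3-AT again lowered part of the set and raised none. The count was highest in the gcn4 strain, where 45 genes were lower (median -1.02), against 15.6% of all probe sets. The gcn2 strain had 32 genes lower (median -0.78) against 13.1%, and gcn4 gln3 also 32 (median -0.74) against 13.6%. The lowest counts were 22 in gln3 (median -0.68) against 9.23% and 20 in gcn2 gln3 (median -0.57) against 11.3%. Over the 5 strains 21.4% to 29.4% of all probe sets were higher. Without the 3 arrays of high actin ratio the counts were 47 in gcn4, 37 in gcn2, 41 in gcn4 gln3, 35 in gln3 and 32 in gcn2 gln3. Of all probe sets 23.8%, 21.1%, 22.1%, 17.8% and 18.9% were lower there, in the same order. Single arrays moved some of the main counts by over 1.5 times. The gcn2 count was 16 without untreated replicate 1 and 19 without 3-AT replicate 3. The gln3 count was 12 without untreated replicate 1 or 4, 7 without untreated replicate 2 and 6 without 3-AT replicate 3. For gcn2 gln3 it was 7 without 3-AT replicate 3, and for gcn4 gln3 19 without untreated replicate 2 and 16 without 3-AT replicate 3.

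11 genes were lower with 3-AT in all 6 genotypes, where 5.04% of all probe sets were, and 25 without the 3 arrays of high actin ratio, where 9.93% were. Of the 11, the small subunit genes were UTP20, MPP10 and ENP1, the large subunit genes NOP4, NSA1, NSA2, NOG1, RRB1 and BRX1, and the shared factors RRP5 and GAR1. GAR1 changed most in gcn4, by -1.60, and least in gln3, by -1.06, with wild type at -1.14. In each genotype GAR1 read lower on the 4 arrays with 3-AT than on the 4 untreated arrays. NSA1, of middle pre-60S particles, read 953, 1045, 774 and 706 in untreated wild type and 390, 531, 421 and 504 with 3-AT, with no overlap, a change of -0.91 ± 0.18 (adjusted p = 5.0e-05, limma). The smallest change of NSA1 in a deletion strain was -0.56. RRB1, for the dedicated chaperone of ribosomal protein L3, changed by -0.87 to -1.43 over the 6 genotypes. At the other end 13 genes passed with 3-AT in no genotype, as did 77.1% of all probe sets (lower calls only): NSR1, UTP6, UTP9, UTP15, UTP18, DBP8 and IMP3 of the small subunit, NOP7, NOG2, DBP6, TIF6 and SSF1 of the large subunit, and NOP58. After leaving out the 3 arrays 8 of them still passed in none, whereas NOP58 passed in wild type, gcn4 and gln3, NOP7 and DBP8 in wild type and gcn4 gln3, IMP3 in wild type and gcn2, and TIF6 in gln3.

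Rapamycin lowered most of the set in every genotype. In gcn4 gln3 56 genes were lower (median -1.62), where 20.0% of all probe sets were, and in gcn2 gln3 55 were (median -1.41), where 10.5% were. The single deletions gave 56 for gcn2 (median -1.43) against 11.8%, 56 for gcn4 (median -1.35) against 11.9% and 47 for gln3 (median -1.12) against 10.2%. None was higher, where at least 16.5% of all probe sets were in each strain. The count for gcn4 gln3 fell to 14 when the compared groups alone were fitted, with the array of high actin ratio among them. Without the 3 such arrays the counts were 58 in gcn4 gln3, 59 in gcn2 gln3, 60 in gcn2, 58 in gcn4 and 56 in gln3. A total of 46 genes were lower in all 6 genotypes, where 5.72% of all probe sets were, and 55 without the 3 arrays, where 9.29% were. In the fit of all arrays DBP10 was lower in none and FPR3 only in gcn4 gln3, where its 4 arrays read 2106, 226, 2443 and 2511 and the low one was the array of high actin ratio. FPR3 was lower with 3-AT in 5 genotypes, all but gln3. SSF1, of early large subunit particles, passed with rapamycin in 2 genotypes, and UTP5, of UtpA, in 3. NSR1, DBP7, ENP2 and RLP7 passed in 4 genotypes, and UTP6, RRP12, RRB1, IMP4, EBP2 and TIF6 in 5. On the gcn4 gln3 rapamycin array of high actin ratio SSF1 read 21470, where the others of its group read 474, 236 and 453. DBP7 and ENP2 read 2212 and 2975 there, where the others read 417 to 683 and 370 to 514. The model pools spread over all groups, so this array enters the standard errors of SSF1, DBP7 and ENP2 in every genotype. Its part in their low counts was not tested, and a low count does not by itself measure the size of a response. UTP4 was below background on all 4 arrays of wild type with rapamycin and of gcn2 with 3-AT, where it was at least 1.67-fold lower than untreated.

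**Figure D5:**
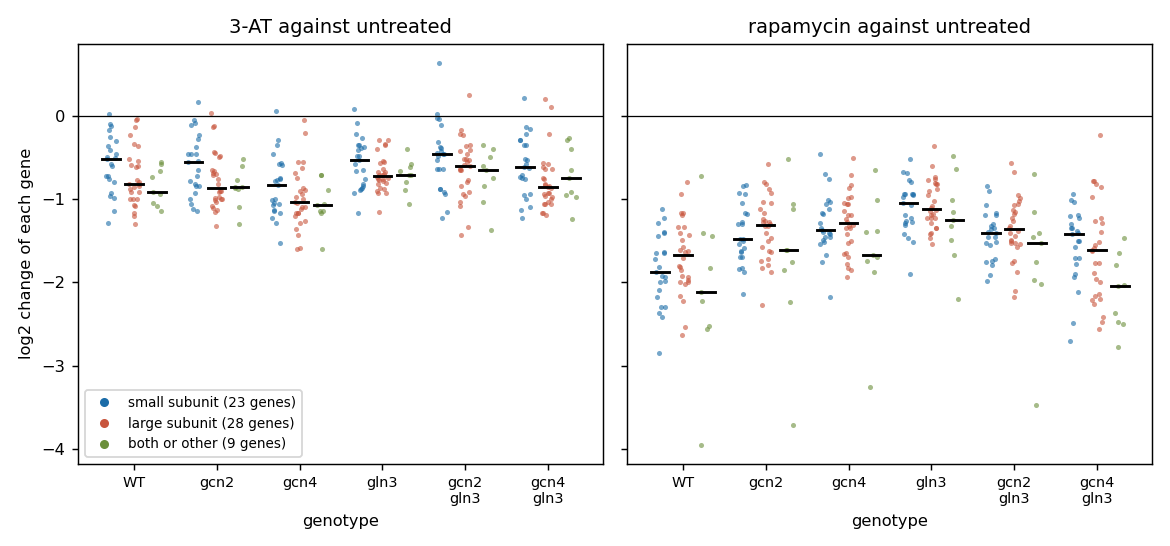
Log2 change against the same genotype's untreated arrays (y axis) of each gene in each genotype (x axis), with 3-AT on the left and rapamycin on the right, coloured by class, with black bars at class medians. With rapamycin every gene lies below 0 in every genotype, and the medians of the 60 run from -1.81 in wild type to -1.12 in gln3; with 3-AT they run from -1.02 in gcn4 to -0.57 in gcn2 gln3.

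Whether a deletion altered the responses was tested as the difference of each gene's response from that of wild type. With 3-AT no gene passed in any of the 5 strains, where the share of all probe sets that did was 0.0582% in gln3, 5.63% in gcn4, 3.42% in gcn2, 5.56% in gcn4 gln3 and 4.99% in gcn2 gln3. At an unadjusted p under 0.05 the single deletions gave 0 genes and the double deletions 1 each, UTP22, at 0.86 ± 0.33 in gcn2 gln3 and 0.81 ± 0.33 in gcn4 gln3. Of all probe sets 9.96% in gcn2, 14.8% in gcn4, 3.65% in gln3, 15.1% in gcn4 gln3 and 15.3% in gcn2 gln3 had such a p, a larger share than of the 60 genes in each strain. Median differences of the 60 genes ran from -0.31 in gcn4 to 0.08 in gcn2 gln3. In gcn4 48 of 60 responses to 3-AT were more negative than in wild type, but none beyond the spread between arrays. The median difference of all probe sets in gcn4 was 0.10.

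Rapamycin responses were less negative than in wild type for most of the genes in the gcn2, gcn4, gln3 and gcn2 gln3 strains, and the difference passed for 1 gene. In gln3 all 60 differences were positive, with a median of 0.72, which was 0.67 above the median of all probe sets, and 14 had an unadjusted p under 0.05, as did 7.54% of all probe sets. In gcn4 58 of 60 were positive (median 0.49), in gcn2 59 (median 0.38), in gcn2 gln3 53 (median 0.36) and in gcn4 gln3 32 (median 0.06), or 0.23 without the 3 arrays of high actin ratio. Medians of all probe sets were 0.08, 0.03, 0.04 and -0.07 in these 4 strains, in the same order. All 5 contrasts share the 8 wild-type arrays, so the counts of positive differences are not independent of each other, and the genes are not replicates. Of all probe sets 0.903% passed in gln3, 1.06% in gcn4, 0.757% in gcn2, 4.12% in gcn4 gln3 and 3.30% in gcn2 gln3. Unadjusted p values under 0.05 were found for 5 genes in gcn4 (6.49% of all probe sets), 1 in gcn2 (4.02%), 2 in gcn4 gln3 (20.1%) and 3 in gcn2 gln3 (9.90%). With the replicate number as a block the adjusted test called 7 genes in gln3, 2 in gcn4 gln3 and 3 in gcn2 gln3, and with array weights 8 in gln3, whereas median centring, or averaging a gene's probe sets, left 0 in gln3. No share of all probe sets is given for these settings, so whether these counts exceed it is not shown. The median of the 60 genes on the rapamycin arrays lay at 9.37 to 10.01 in gln3 and 8.47 to 9.09 in wild type, with no overlap, and on the untreated arrays at 10.48 to 11.04 and 10.33 to 10.89.

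The 1 gene past the threshold was DBP2 in gln3, where 0.903% of all probe sets passed. A count of 1 among 60 is too small to set these genes apart from that share. It read 6810, 6703, 4286 and 7892 in untreated gln3 and 2023, 1020, 1141 and 1455 with rapamycin. All 4 treated arrays were above the 4 of wild type, which were at most 452, and the response differed by 1.75 ± 0.45 (adjusted p = 0.036, limma). DBP2 changed by -2.20 in gln3 and -2.78 in gcn4 gln3, against -3.26 in gcn4, -3.48 in gcn2 gln3 and -3.71 in gcn2. The call was lost on leaving out any 1 of 10 arrays: untreated replicates 1, 2 and 4 and rapamycin replicates 1, 2 and 3 of wild type, and untreated replicates 1 and 3 and rapamycin replicates 1 and 4 of gln3. Without the 3 arrays of high actin ratio it had an adjusted p of 0.0022, and UTP15 (1.20 ± 0.31, adjusted p = 0.012) and DBP8, a helicase gene of the small subunit (0.96 ± 0.29, adjusted p = 0.039), passed too by limma. These were 3 of the 60 genes, near the share of all probe sets that passed in that fit, which was 4.43%.

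UTP15 in gln3 read 715, 845, 550 and 664 with rapamycin, all above the 186 to 317 of wild type, from 1573, 1867, 1450 and 1519 untreated. In gcn4 gln3 the 2 genes DBP2 (1.63 ± 0.40, adjusted p = 0.0037, limma) and UTP15 (1.04 ± 0.32, adjusted p = 0.031, limma) also passed once the 3 arrays were left out, together with UTP22 (1.04 ± 0.33, adjusted p = 0.039, limma). These were 3 of the 60 genes, a share no larger than the 6.94% of all probe sets that passed in gcn4 gln3. The array dropped from that group read DBP2 at 348 where the other 3 read 1580, 897 and 1338, and UTP15 at 194 where they read 671, 444 and 701. In gcn2 gln3 DBP2 read 931, 471, 303 and 547 with rapamycin, and its response differed from wild type by 0.19 ± 0.40 without those arrays (adjusted p = 0.88, limma). The value for gcn2 gln3 and the value for gln3 were not tested against each other.

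No gene differed between any untreated deletion strain and untreated wild type by limma, where the share of all probe sets that did was 0.801% for gln3, 1.21% for gcn4, 0.146% for gcn2, 1.19% for gcn4 gln3 and 1.31% for gcn2 gln3. At an unadjusted p under 0.05 the count was 1, DBP6 in gcn2 gln3 at 0.49 ± 0.20, where 6.67% of all probe sets passed in that strain, 1.34% in gcn2, 5.01% in gcn4, 6.23% in gln3 and 7.47% in gcn4 gln3. The group means of the 60-gene median ran from 10.58 in gcn2 to 10.88 in gcn4 gln3, with standard deviations of 0.17 to 0.32 (n = 4). The order in between was gcn4, wild type, gcn2 gln3 and gln3, and no neighbours in it differed beyond their spread.

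A wider list of 98 further assembly factors, of which 95 were tested, moved the same way. With rapamycin in wild type 79 were lower and 0 higher (median -1.45), where 15.7% of all probe sets were lower and 22.2% higher. The most negative were SRP40, for a nucleolar serine-rich protein (-3.12 ± 0.40), HAS1, for a DEAD-box helicase listed here with the large subunit factors (-2.90 ± 0.34), and RSA4, of late pre-60S particles (-2.56 ± 0.59). With 3-AT 32 were lower and 1 was higher (median -0.57), where 13.6% of all probe sets were lower and 22.2% higher. The higher one was JIP5, of the large subunit, at 0.74 ± 0.23 (adjusted p = 0.0099, limma), which was lower with rapamycin at -0.64 ± 0.23. NOP6, of the small subunit, was the 1 factor higher with rapamycin than with 3-AT, by 0.82 ± 0.25, with changes of -1.38 ± 0.25 under 3-AT and -0.56 ± 0.25 under rapamycin.

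Messages of 8 listed regulators of ribosome biogenesis or ribosomal protein genes moved in part. CRF1, for a corepressor of ribosomal protein genes, was higher with both agents, by 3.12 ± 0.27 with 3-AT and 1.31 ± 0.27 with rapamycin. SFP1 (1.22 ± 0.28) and the repressor gene STB3 (1.17 ± 0.20) were higher with 3-AT, and with rapamycin they read 0.40 ± 0.28 and 0.17 ± 0.20 and did not pass. SCH9 was higher with rapamycin (0.93 ± 0.20) and TOD6 lower (-1.11 ± 0.36). DOT6, FHL1 and IFH1 passed in neither comparison.

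By gene order in the reference assembly 8 pairs of adjacent genes are made of a member and another listed factor, or of 2 members. NSA2 and its divergent neighbour LCP5, a small subunit gene, changed by -1.81 and -1.62 with rapamycin. MAK5 also faces away from its neighbour BMT2, which encodes a 25S rRNA methyltransferase, and these changed by -1.63 and -1.40. GAR1 changed by -2.52, whereas RPF1, which lies next to it in convergent orientation, changed by -0.20. Strains share no arrays, so their changes were also set against each other across the 60 genes. Between wild type and each deletion strain Pearson's r of the 3-AT changes was 0.52 to 0.72, below the 0.74 to 0.89 over all probe sets in each of the 5 pairs. For rapamycin it ran from 0.53 (0.70 over all probe sets) with gcn4 gln3, the strain with an array of high actin ratio, to 0.94 (0.92) with gcn2. Genes are not independent replicates, and these values are a description.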

How the data were processed

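Total RNA (hot phenol) was labelled and hybridised to Affymetrix yeast arrays, per the labels' protocols. Each deposited array holds a linear intensity, the signal, of 9335 probe sets, which the authors made with GCOS and MAS5 per the submitters' processing notes; no version was given. The mean signal after trimming 2% at each end is 1001 on all 72 arrays, so the deposited values had been scaled to a common mean. Array medians ran from 259 to 400, and the number of arrays limits the precision.

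Here values under 16.5, the 10th percentile over the arrays together, were set to it, log2 was taken and arrays were not rescaled. Background was each array's 30th percentile (66.0 to 137), and a probe set had to exceed it on at least 4 arrays to be tested. Each gene was read by its brightest probe set, which left 6869 probe sets, 5409 of them of 1 named gene. Of the 60 members 47 were above background on all arrays and 5 had several probe sets. Probe sets were named from the platform annotation, and gene order came from the RefSeq table. One model of 18 group means was fitted with limma 3.58.1 in R 4.3.3 (54 residual degrees of freedom), and 28 contrasts were each adjusted over all probe sets (Benjamini-Hochberg, threshold 0.05). The script was tested on simulated data. Levels are log2 signal, changes are differences of log2 means.

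The members, their classes and the other lists were chosen with earlier results of these data known. Any member may be named; those with values on every array have the most and least negative changes of their class with either agent, or a response that differed in a mutant. NSA1 was added after its values were seen. Alternatives were the floor, scaling, filter, probe set rule, replicate block, array weights, samples fitted and arrays left out. Promoter and protein sequences were not used here.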

Additional observations from a re-analysis of the deposited data

Results flagged for a closer look

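A total of 138 groups of 4 values were examined for a value far from the other 3, by the gap to its neighbour as a share of the range, and 16 stood out; chance alone gives about 1 in 20. Of the 16, 13 lay on arrays numbered 3, each time as the lowest value. All values here are log2 signals.

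The median of the 60 genes stood out on replicate 3 of wild type with rapamycin at 8.47 (the others 8.99 to 9.09), of gcn2 with rapamycin at 8.60 (9.27 to 9.38), of gln3 with 3-AT at 9.74 (10.34 to 10.43) and of gcn4 gln3 with 3-AT at 9.75 (10.29 to 10.38). The large subunit median did so on replicate 3 of wild type with 3-AT at 9.48 (10.00 to 10.10) and of gcn2 with rapamycin at 8.82 (9.60 to 9.71), and the small subunit median on replicate 3 of untreated gln3 at 9.96 (10.54 to 10.66). The median of the shared factors did so on replicate 3 of wild type with rapamycin at 9.41 (10.08 to 10.19), of untreated gcn2 at 11.54 (the others up to 12.03) and of gcn2 gln3 with rapamycin at 9.53 (10.67 to 10.74). The actin ratio of the arrays numbered 3 had a median of 1.57 and ran from 1.31 to 2.56; its part in these values was not tested.

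Among single genes in wild type, replicate 3 gave the low value of UTP22 with 3-AT at 9.14 (9.72 to 9.81) and, with rapamycin, of BRX1 at 8.66 (9.61 to 9.64) and GAR1 at 9.31 (9.98 to 10.07). The other values that stood apart were high: UTP15 on untreated replicate 2 at 10.70 (10.09 to 10.17), UTP9 on 3-AT replicate 4 at 9.52 (9.23 to 9.27) and UTP20 on rapamycin replicate 4 at 7.84 (7.02 to 7.14).

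The response of DBP2 to rapamycin differed between gln3 and wild type by 1.75 (limma's test of the difference, adjusted p = 0.036).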

How the results depend on the processing

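Direction of the class counts held: no gene was higher with either agent against untreated cells in any of the settings run, and 1 at most was higher with rapamycin than with 3-AT. The count lower with rapamycin in wild type stayed at 57 to 60 in all settings. The number lower with 3-AT in wild type (24) was 41 with array weights, 37 with median centring, 40 with only the groups compared, 38 with the replicate block and 38 without the 3 arrays of high actin ratio. In gln3 (22) the same 5 settings gave 45, 40, 36, 36 and 35. In gcn2 gln3 (20), array weights gave 40, median centring 35 and leaving out the 3 arrays 32. Without the 3 arrays 22.8%, 17.8% and 18.9% of all probe sets were lower in wild type, gln3 and gcn2 gln3. For the other settings no such share is given. The number lower with rapamycin in gcn4 gln3 (56) was 14 with only the groups compared. The 0.30 gap between small and large subunit factors with 3-AT was 0.23 with quantile normalization.

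Genes whose rapamycin response differed in gln3 (1) numbered 8 with array weights, 0 with the mean of a gene's probe sets, 0 with median centring, 3 with only the groups compared, 7 with the replicate block and 3 without the 3 arrays. In gcn4 gln3 (0) they numbered 3, 2 and 3 with array weights, the replicate block and without the 3 arrays, in gcn2 gln3 (0) 1 with array weights, 3 with the replicate block and 1 when every array had to be above background, and in gcn4 (0) 1 with array weights. Without the 3 arrays the rapamycin response of 4.43% of all probe sets differed in gln3 and of 6.94% in gcn4 gln3. For 3-AT the replicate block called 1 gene in each double deletion and array weights 1 in gcn4 gln3. The cause was not tested; the median residual standard deviation was 0.28 without the 3 arrays and 0.41 with them. The replicate numbers did not qualify as pairs (same-number deviations correlated at 0.23 on average and over 0.1 for 441 of 612 pairs, though 61 of 72 arrays correlated best with their own number), so the block is an alternative only.

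Leaving out 1 array, or all arrays of 1 replicate number (an alternative chosen after seeing the data), gave 15 to 27 genes lower with 3-AT in wild type, 13 to 34 in gcn2, 24 to 46 in gcn4, 6 to 26 in gln3, 7 to 25 in gcn2 gln3 and 13 to 37 in gcn4 gln3. It gave 26 to 49 lower with rapamycin in gln3, 28 to 45 lower with rapamycin than with 3-AT, 0 to 1 differing rapamycin responses in gln3 and gcn2 gln3, 0 to 2 in gcn4 gln3, and a gap between small and large subunit factors with 3-AT of 0.22 to 0.32. Among single values, UTP18 with 3-AT was -0.03 with quantile normalization and -0.15 with median centring, the difference of rapamycin from 3-AT was 0.03 for UTP20 with quantile normalization and -0.08 for DBP10 with array weights. Leaving arrays out also turned the sign of values near 0: with 3-AT DBP6 ran from -0.24 to 0.13, DBP7 from -0.42 to 0.02, SSF1 from -0.16 to 0.09, UTP9 from -0.29 to 0.06, UTP15 from -0.30 to 0.06 and UTP18 from -0.13 to 0.20, and for rapamycin against 3-AT DBP10 ran from -0.18 to 0.17 and RLP7 from -0.65 to 0.06. Dim signal limits UTP4 most.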
